A study of Mus musculus with 9 samples.

Results

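The genes described here are 10 markers of synovial fibroblasts (SFs) of the joint lining and sublining: Prg4, Clic5, Cd55, Pdpn, Fap, Thy1, Cd34, Dpp4, Pi16 and Ly6a. They were chosen by name, with earlier results of these data known, and all 10 were found among the 49548 genes of the deposited tables. RNA was sequenced from SFs cultured from the ankle joints of CBA C57BL/6J mice at an age of 8 weeks, either wild-type (WT) mice or arthritic mice with a human TNF transgene (hTNFtg). There were 3 libraries of WT SFs, 3 of hTNFtg SFs and 3 of hTNFtg SFs treated with infliximab, an antibody against human TNF, at 1 µg/mL for 48 hours. The labels give the WT and hTNFtg SFs no treatment, whereas the methods describe vehicle. In all 3 groups CD45+ cells, the leukocytes, were depleted at passage 1. These are cultured cells, so the lining and sublining layers of the tissue were not sampled separately.

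The synovial lining is a thin layer of fibroblasts and macrophages that faces the joint cavity, and its fibroblasts secrete lubricin and hyaluronan into the joint fluid. The sublining below it holds vessels and fibroblasts that carry the surface protein Thy1. Fibroblasts with Dpp4, Pi16, Cd34 and Ly6a are found around vessels and in the outer connective tissue of many organs. In arthritis the synovial membrane grows, and both layers of fibroblasts take part in inflammation and in damage to cartilage and bone.

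The libraries were made by 3′ mRNA sequencing, in which reads come from the end of a transcript and do not grow in number with its length. All values are normalized counts, that is, read counts of genes that the authors normalized and rounded. Approximate reads, obtained from an estimate of what 1 read was worth in each library, came to between 3828419 and 9014512 in 8 libraries and to 613267 in hTNFtg replicate 1. In that library 1 read was worth 6.23 normalized counts, and the floor of 3 reads lay at 18.7, against 1.60 to 3.31 in the others. Collagen and other general fibroblast genes were detected in full, with 15 of 15 genes at a mean of at least 10. Of 9 endothelial genes, Pecam1, Cdh5 and Kdr did not exceed 3 normalized counts in any library, whereas Egfl7 stood at 280 to 295 in WT, 106 to 236 in hTNFtg and 178 to 236 with infliximab. Of 8 T cell genes, Cd3e, Cd2 and Cd8a were at 0 in all 9 libraries, Cd3d stood at 4 to 14, and Cd3g, Cd4, Lck and Trac ranged from 0 to 14. The T cell list summed to 13 to 31 in WT, 10 to 18 in hTNFtg and 10 to 23 with infliximab. Genes of immune cells, mainly macrophages, summed to 215 to 1007 normalized counts over 10 genes in WT, 3813 to 8189 in hTNFtg and 2472 to 4823 with infliximab. Ptprc, which encodes CD45, stood at 0, 3 and 0 in WT replicates 1, 2 and 3, at 31, 9 and 12 in hTNFtg, and at 28, 8 and 22 with infliximab.

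Of the 10 genes, Pdpn and Cd55 were raised in hTNFtg SFs against WT by the rule of the study, which asks for a log2 fold change of 1 or more, up or down, at an unadjusted P under 0.05. Pdpn was 4.42-fold higher and Cd55 3.10-fold higher in the mean. The 2 of 10 genes stand beside 6.39% of the 28522 genes tested that passed this rule in either direction. After infliximab treatment 0 of the 10 genes passed the rule against untreated hTNFtg SFs, beside 2.43% of 28540 genes. Pdpn also passed it in infliximab-treated hTNFtg versus WT SFs, as 1 of the 10 genes beside 6.81% of 28243 genes. The test was limma, run on normalized counts to which 1 was added before taking log2, and fold changes on that scale understate those of low genes. The methods describe 3 biological replicates. The limma p-values rest on the spread between these libraries, with the variance of each gene drawn toward a trend over all genes tested. An exact permutation test of 3 against 3 libraries cannot go below 0.1.

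**Figure D1:**
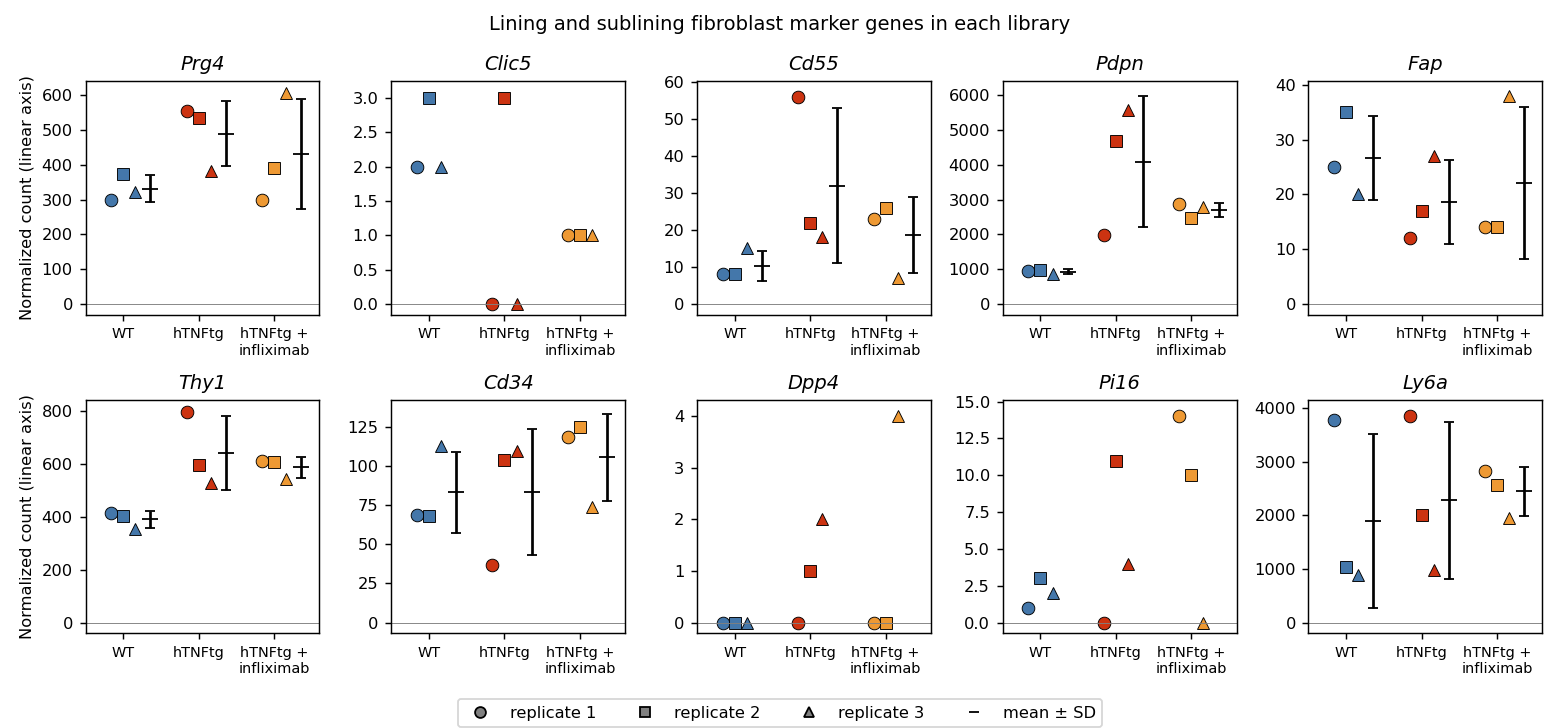
Normalized counts (linear axis from 0, a separate scale for each gene) of the 10 marker genes in each library, by group, with replicates 1, 2 and 3 as circles, squares and triangles. Bars give mean ± SD for genes with a mean of at least 10. The 3 WT values of Pdpn lie between 852 and 982, below all 6 values of the hTNFtg groups.

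In WT SFs the levels, in normalized counts of 3′ reads, ran from Ly6a (mean 1893) and Pdpn (925) through Thy1 (390.3), Prg4 (331.7) and Cd34 (83.3) to Fap (26.7) and Cd55 (10.3). Clic5, Pi16 and Dpp4 closed the order at 3 or fewer in every WT library. Ly6a and Pdpn overlapped in WT, as did Thy1 and Prg4, whereas Cd34, Fap and Cd55 did not overlap with their neighbours in this order. The place of Prg4 is that of its listed values, which cannot be told apart from those of the overlapping gene Tpr, as described below. In hTNFtg SFs the mean of Pdpn (4088) exceeded that of Ly6a (2278), and that of Cd55 (32) exceeded that of Fap (18.7), but the libraries of each couple overlapped. Over all 9 libraries the mean of Pdpn ranked at percentile 99.2 of the genes above 0, that of Thy1 at 94.9 and that of Cd55 at 61.5. The levels thus ranged from among the highest of all genes to the edge of detection.

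Pdpn encodes podoplanin, a mucin-like membrane protein found on fibroblasts of both layers. It lies on the minus strand at chr4:143267431-143299564 of mm10. Its normalized counts were 941, 982 and 852 in WT replicates 1, 2 and 3. In hTNFtg SFs they were 1987, 4695 and 5582. With infliximab they were 2862, 2460 and 2772. Every hTNFtg and every infliximab value lay above the 3 WT values, and the hTNFtg and infliximab groups overlapped. The mean was 925 ± 66.5 (SD, n = 3) in WT, 4088 ± 1870 in hTNFtg and 2698 ± 211 with infliximab.

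Between hTNFtg and WT the log2 fold change of Pdpn was 2.01 (SE 0.42), with an unadjusted P of 5.27e-04 and a Benjamini-Hochberg adjusted p of 0.0729 by limma. By limma 0 of the 10 members had an adjusted p under 0.05 in this comparison, in which 0.480% of genes did, while 3 (Pdpn, Cd55 and Thy1) had an unadjusted P under 0.05, beside 7.72% of genes. By edgeR 1 member (Pdpn) was called after adjustment, beside 3.23% of genes. Pdpn was likewise the 1 member called with array quality weights (beside 3.52% of genes), with robust eBayes (1.62%) and with all 9 libraries fitted together (1.22%). The adjusted p ranged from 9.64e-05 to 0.535 over the alternatives, the lowest of them by edgeR (quasi-likelihood test). Pdpn passed the study's rule with each of the 6 libraries left out, at log2 fold changes of 1.72 to 2.47. The lowest hTNFtg value, 1987, came from the shallow replicate 1, where it stood for 319 reads. Their exact 95% Poisson interval of 285 to 356 reads, or 1770 to 2220 normalized counts, covers counting error only. Without this library the log2 fold change was 2.47, with an adjusted p of 0.111.

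Between infliximab-treated and untreated hTNFtg SFs the log2 fold change of Pdpn was -0.47 (SE 0.44), with an adjusted p of 0.803 by limma. Neither Pdpn nor any other member had an adjusted p under 0.05 here, and the share over all genes was 0%. The 10 members also gave 0 at an unadjusted P under 0.05 by limma, beside 1026 of 28540 genes. By edgeR 0 members were called after adjustment, beside 165 of 28540 genes. At shares this low, 0 of 10 does not set the members apart from other genes. Without hTNFtg replicate 1 the log2 fold change was -0.93, with an unadjusted P of 0.00492 and an adjusted p of 0.472. Against WT, treated hTNFtg SFs were higher in Pdpn by a log2 fold change of 1.54 (SE 0.17), or 2.92-fold in the mean, with an adjusted p of 0.0132 by limma. This was 1 of the 10 genes under 0.05, beside 0.740% of all genes, and the adjusted p ranged from 2.98e-10 to 0.407 over the alternatives. With any single library left out it lay between 0.0819 and 0.335. The comparisons share libraries, so they are not independent of each other.

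Relative to Thy1, counted in the same library, Pdpn stood at 2.27, 2.44 and 2.41 in WT replicates 1, 2 and 3. For hTNFtg SFs the ratio was 2.49, 7.88 and 10.6, and after infliximab it was 4.68, 4.06 and 5.11. Both hTNFtg groups lay above WT in every library, although hTNFtg replicate 1 did so narrowly. The exact permutation p was 0.1 for each hTNFtg group against WT, which is the smallest it can give, and 0.6 between the hTNFtg groups (two-sided, n = 3). The immune cell genes moved in the same direction as Pdpn, with 9 of 10 past the study's rule in hTNFtg versus WT SFs (8 of 10 without hTNFtg replicate 1). In treated hTNFtg versus WT SFs 9 of 10 were also raised, at a median log2 fold change of 3.0. In treated versus untreated hTNFtg SFs 0 of 10 of these immune cell genes passed. Their part in the Pdpn result was not tested. In bulk samples fewer cells of a type and less RNA per cell cannot be told apart.

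The promoters of Pdpn and Cd55 are shown because these 2 genes passed the study's rule. They are the 250 bases before the RefSeq start in GRCm38.p6, chr4:143299565-143299814 for Pdpn and chr1:130462745-130462994 for Cd55, both on the minus strand and written 5′ to 3′. Capitals mark matches on either strand to GGGNNNNNCC, a loose form of the site of NF-κB, a transcription factor that TNF activates. Overlapping matches run together.
Pdpn: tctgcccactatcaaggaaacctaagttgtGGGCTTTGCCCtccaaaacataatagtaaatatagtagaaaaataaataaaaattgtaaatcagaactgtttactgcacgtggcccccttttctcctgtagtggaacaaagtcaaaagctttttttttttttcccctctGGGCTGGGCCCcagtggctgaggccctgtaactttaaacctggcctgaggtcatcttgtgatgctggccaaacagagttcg
Cd55: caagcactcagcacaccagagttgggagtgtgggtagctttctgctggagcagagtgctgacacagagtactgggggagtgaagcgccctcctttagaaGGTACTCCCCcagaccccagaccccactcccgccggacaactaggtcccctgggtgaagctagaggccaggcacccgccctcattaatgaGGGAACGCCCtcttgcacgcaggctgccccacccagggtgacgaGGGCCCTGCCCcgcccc
The Pdpn promoter held matches in 2 places and the Cd55 promoter in 3, and the GC content was 43.2% and 64.0%, beside a median of 52.4% over 32851 promoters. The motif occurred in 45.8% of all promoters of the same length and in 4 of the 6 member promoters found in the table, those of Cd55, Cd34, Pdpn and Clic5. An AP-1 motif, TGANTCA, was in 6.75% of all promoters and in 0 of the 6. A match says only that these letters are present. Prg4, Fap, Thy1 and Ly6a had no entry.

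**Figure D2:**
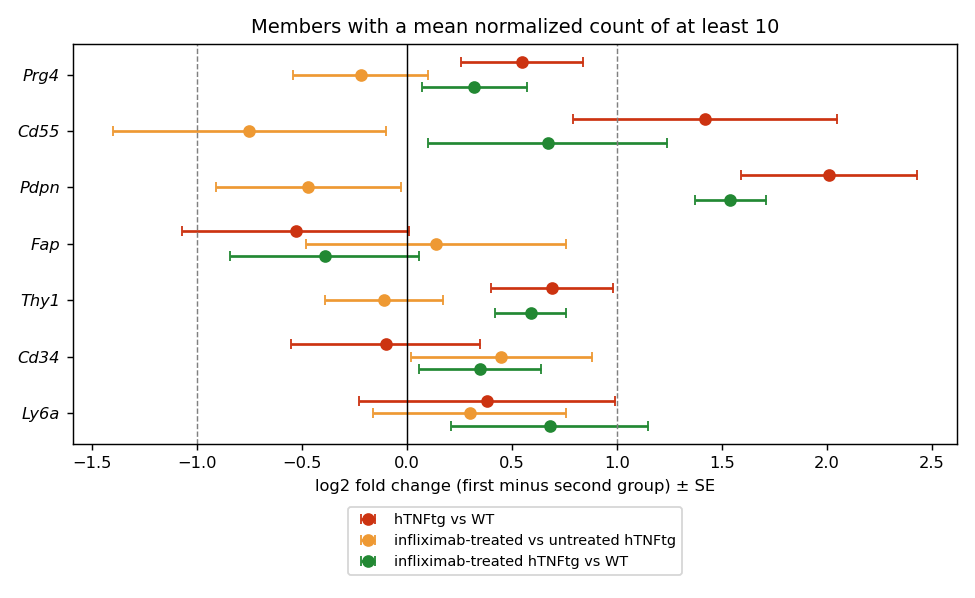
Log2 fold change ± SE (x axis, first group minus second group) of the 7 marker genes whose mean normalized count reached 10, in the 3 comparisons. Dashed lines mark 1 and -1. Pdpn lies beyond 1 in both comparisons with WT (2.01 and 1.54) and Cd55 in hTNFtg versus WT (1.42).

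Prg4, Clic5 and Cd55 are lining genes. Cd55 encodes decay-accelerating factor, which limits complement at the cell surface and binds the receptor Adgre5 (CD97). It lies on the minus strand at chr1:130439027-130462744 of mm10. Cd55 stood at 8, 8 and 15 normalized counts in WT replicates 1, 2 and 3. It stood at 56, 22 and 18 in hTNFtg and at 23, 26 and 7 with infliximab. All hTNFtg values exceeded all WT values, while the infliximab group overlapped with both others.

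The log2 fold change of Cd55 in hTNFtg versus WT was 1.42 (SE 0.63), with an unadjusted P of 0.0462 and an adjusted p of 0.635 by limma. The value of 56 in hTNFtg replicate 1 rested on 9 reads, with an exact 95% Poisson interval of 25.6 to 106 normalized counts. Without that library the log2 fold change was 0.94, with an unadjusted P of 0.079. Cd55 kept to the study's rule with 2 of 6 libraries left out in turn, and lost it without WT replicate 1 or 2 or hTNFtg replicate 1 or 2. The log2 fold change was 1.28 without either WT library, with an unadjusted P of 0.111 and 0.118 by limma. Without hTNFtg replicate 2 it was 1.59, with an unadjusted P of 0.0622. The call also ended with the replicate block (1.42, unadjusted P of 0.0813) and with a pseudocount of 5 (1.16, unadjusted P of 0.0595). In treated versus untreated hTNFtg SFs the log2 fold change was -0.75 (SE 0.65), and in treated hTNFtg versus WT SFs it was 0.67 (SE 0.57). Neither passed the rule, although without infliximab replicate 3 the latter came to 1.22 with an unadjusted P of 0.0296. Cd55b, the near copy of Cd55, was at 0 in all 9 libraries. Adgre5 stood at 204 to 214 in WT, 233 to 330 in hTNFtg and 231 to 299 with infliximab.

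Prg4 encodes lubricin, the lubricating proteoglycan of joint fluid. It lies on the minus strand at chr1:150449412-150466165 of mm10. The values listed for Prg4 were 299, 375 and 321 normalized counts in WT replicates 1, 2 and 3. In hTNFtg SFs they were 554, 534 and 382, and with infliximab 299, 391 and 606. The hTNFtg values lay above the WT values, and the infliximab values spanned both. Against WT, hTNFtg SFs had a log2 fold change of 0.55 (SE 0.29), with an unadjusted P of 0.0819 and an adjusted p of 0.726 by limma.

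The Prg4 values cannot be told apart from those of its neighbour Tpr, which encodes a nuclear pore protein made in most cells. Tpr runs on the opposite strand, and its last exon overlaps Prg4 near its end by 204 bases at chr1:150449732-150449935. All of them lie within the last 500 bases of Tpr, and 180 within the last 500 bases of Prg4. Tpr stood at 335, 432 and 395 normalized counts in WT, 610, 596 and 444 in hTNFtg, and 338, 417 and 602 with infliximab. Divided by Tpr, Prg4 was between 0.813 and 1.01 in the 9 libraries. Among 8630 genes with a mean of at least 50, Tpr was the gene whose log2 values were most like those of Prg4, with a Pearson r of 0.981 over the 9 libraries. Whether strand was used in counting is not stated. Whether reads of the overlap were counted for Prg4 as well as for Tpr was not tested. In 293 pairings, exons of a partner on the other strand cover the last 200 bases of a gene. The partner reached at least 0.5 of the gene's value in every library in 238 pairings, while in 10 its mean was under 0.05 of the gene's. Prg4 is not such a gene with Tpr as its partner, since its last 200 bases lie outside the overlap. The listed level and change of Prg4 are given as those of the Prg4 and Tpr locus.

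**Figure D3:**
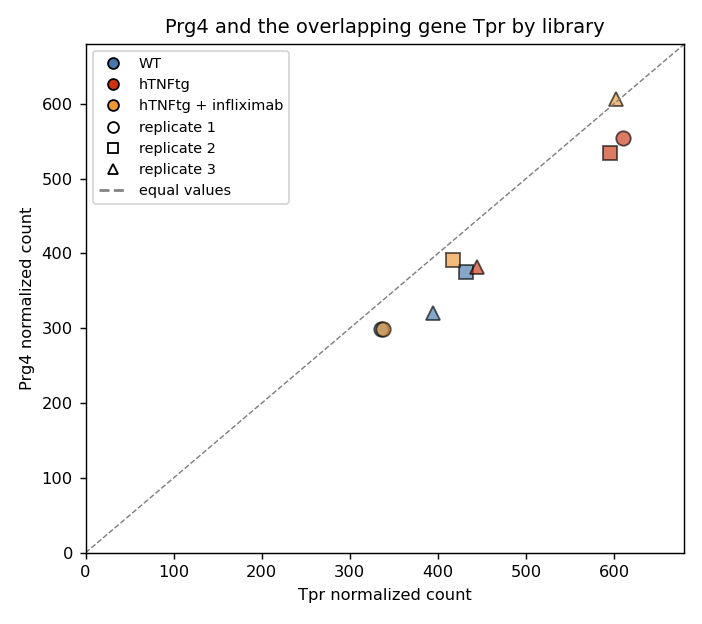
Normalized count of Prg4 (y axis) against that of Tpr (x axis) in the 9 libraries, by group (colour) and replicate (shape), with a dashed line of equal values. The points follow the line at ratios of 0.813 to 1.01, and those of WT replicate 1 and infliximab replicate 1 lie on each other.

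Clic5 encodes a chloride intracellular channel protein that links the membrane to the cytoskeleton. It stood at 2, 3 and 2 normalized counts in WT replicates 1, 2 and 3, at 0, 3 and 0 in hTNFtg, and at 1 in each infliximab library. These values amount to at most 4 approximate reads, and no fold is given. A level of up to 18.7 normalized counts in hTNFtg replicate 1 would not have been detectable above the floor.

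Fap encodes fibroblast activation protein, a membrane-bound protease of activated fibroblasts in both layers. It stood at 25, 35 and 20 normalized counts in WT replicates 1, 2 and 3, at 12, 17 and 27 in hTNFtg, and at 14, 14 and 38 with infliximab. All 3 groups overlapped. Fap had a log2 fold change of -0.53 (SE 0.54) in hTNFtg versus WT and 0.14 (SE 0.62) in treated versus untreated hTNFtg SFs. The value in hTNFtg replicate 1 rested on 2 reads, and their interval of 1.51 to 45 normalized counts holds all WT values.

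Thy1, Cd34, Dpp4, Pi16 and Ly6a mark sublining fibroblasts. Thy1 encodes a small membrane glycoprotein that binds integrins, and T cells and neurons also carry it. It lies on the plus strand at chr9:44043384-44048579 of mm10. Thy1 stood at 414, 403 and 354 normalized counts in WT replicates 1, 2 and 3. It stood at 797, 596 and 527 in hTNFtg and at 612, 606 and 542 with infliximab. Both hTNFtg groups lay above WT in every library and overlapped with each other.

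The mean of Thy1 was 390.3 ± 31.9 (SD, n = 3) in WT, 640 ± 140 in hTNFtg and 586.7 ± 38.8 with infliximab. The log2 fold change was 0.69 (SE 0.29) in hTNFtg versus WT, with an unadjusted P of 0.0344 and an adjusted p of 0.570 by limma. In treated hTNFtg versus WT SFs it was 0.59 (SE 0.17), with an unadjusted P of 0.00555 and an adjusted p of 0.170. Both are below the fold of the study's rule. Treated and untreated hTNFtg SFs differed by -0.11 (SE 0.28). The 8 T cell genes summed to 31 or less in every library.

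Over the 7 members with a mean of at least 10, the groups hTNFtg and WT did not overlap for Prg4, Cd55, Pdpn and Thy1, all 4 higher in hTNFtg, with Prg4 counted although its values are not separable from those of Tpr. Such a separation was found in 18.6% of 13634 genes at this level. For treated versus untreated hTNFtg SFs it was found in 0 of 7, beside 12.3% of 13606 genes. For treated hTNFtg versus WT SFs it was found in 2 of 7, Pdpn and Thy1, beside 23.3% of 13470 genes.

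Ly6a encodes Sca-1, a glycolipid-anchored surface protein of progenitor cells and of fibroblasts. It lies on the minus strand at chr15:74994877-74998031 of mm10. Its normalized counts were 3767, 1034 and 877 in WT replicates 1, 2 and 3. They were 3855, 2006 and 972 in hTNFtg and 2820, 2568 and 1945 with infliximab. Spread within WT and within hTNFtg was larger than the differences between groups, which all overlapped. The log2 fold change was 0.38 (SE 0.61) in hTNFtg versus WT, 0.30 (SE 0.46) in treated versus untreated hTNFtg and 0.68 (SE 0.47) in treated hTNFtg versus WT SFs. Without WT replicate 1, the highest in its group, the last of these came to 1.34 with an unadjusted P of 8.41e-04 and an adjusted p of 0.0988.

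Ly6a lies among related genes. Ly6c1 stood at 477, 111 and 111 in WT replicates 1, 2 and 3, at 212, 115 and 45 in hTNFtg, and at 232, 253 and 146 with infliximab. Ly6e stood at 113, 124 and 225 in WT, 330, 287 and 492 in hTNFtg, and 252, 209 and 303 with infliximab. Ly6c1 was highest in the same WT and hTNFtg library as Ly6a, and Ly6e was highest in another library of each group. Of the 451 stretches of 50 bases in the last 500 bases of Ly6a, 20 also occur in Ly6c2 or I830127L07Rik transcripts. Ly6c2 did not exceed 27 in any library. In the other 9 members 0 of 451 stretches occurred in another gene's transcripts.

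Cd34 encodes a sialomucin of fibroblasts, endothelial cells and blood progenitors. It stood at 69, 68 and 113 normalized counts in WT replicates 1, 2 and 3, at 37, 104 and 110 in hTNFtg, and at 119, 125 and 74 with infliximab. All 3 groups overlapped, and the value of 37 rested on 6 reads, with an exact 95% Poisson interval of 13.7 to 81.3 normalized counts. The log2 fold change of hTNFtg versus WT SFs was -0.10 (SE 0.45), and it was 0.40 without hTNFtg replicate 1. The other 2 comparisons gave 0.45 (SE 0.43) against untreated hTNFtg and 0.35 (SE 0.29) against WT.

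Dpp4 encodes a membrane-bound peptidase and Pi16 a peptidase inhibitor, and both mark fibroblasts shared by many organs. Dpp4 was at 0 in all 3 WT libraries, at 0, 1 and 2 in hTNFtg, and at 0, 0 and 4 with infliximab. Pi16 stood at 1, 3 and 2 in WT, at 0, 11 and 4 in hTNFtg, and at 14, 10 and 0 with infliximab. WT lay at the floor for both genes, and every other group held a library at 0. No fold is given for them.

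Other genes of the 2 layers were counted by the study's rule. Over all genes tested, 6.39% passed it in hTNFtg versus WT and 6.81% in treated hTNFtg versus WT SFs. In treated versus untreated hTNFtg SFs 2.43% passed. Without hTNFtg replicate 1, 1510 genes were raised and 845 lowered of 28244 in hTNFtg versus WT SFs. These shares stand beside the counts of this list and of those that follow. The lists were chosen with earlier results of these data known, so setting their counts beside the shares is a description and no test. Of 10 other lining genes tested, 2 were raised and 0 lowered in hTNFtg versus WT SFs, and the median log2 fold change was 0.54, against 0.00 over all genes tested. Hbegf, a growth factor of the epidermal growth factor family, rose to 75 to 86 normalized counts from 32 to 40 in WT, a log2 fold change of 1.10 (SE 0.35, adjusted p = 0.305 by limma). Without hTNFtg replicate 1 there were 1 raised and 1 lowered. In treated hTNFtg versus WT SFs 3 were raised and 1 lowered, with Tspan15, a tetraspanin, at a log2 fold change of 1.11 (SE 0.40) and Sema5a, a semaphorin, at -1.62 (SE 0.55). In treated versus untreated hTNFtg SFs 0 of 10 passed.

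Of 20 other sublining and universal fibroblast genes, 3 were raised and 6 lowered in hTNFtg versus WT SFs, and the median log2 fold change was -0.53. Without hTNFtg replicate 1 the counts were 3 and 7, with a median of -0.29. The raised genes were Sema3c, a secreted semaphorin (2.41, SE 0.39), Ackr3, a scavenging chemokine receptor (1.79, SE 0.42), and Anxa3, an annexin (1.26, SE 0.33). Sema3c stood at 31, 15 and 25 normalized counts in WT, at 131, 116 and 129 in hTNFtg, and at 87, 78 and 83 with infliximab. It had an adjusted p of 0.0235 by limma in hTNFtg and 0.0362 in treated hTNFtg, each against WT.

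Among the lowered genes with a mean of at least 10, the 4 with the largest change in hTNFtg versus WT SFs were Penk, the precursor of enkephalins (-3.75, SE 0.62), Dpt, a matrix protein (-2.22, SE 0.58), Col14a1, a fibril-associated collagen (-1.75, SE 0.42), and Pcolce2, an enhancer of procollagen processing (-1.72, SE 0.50). Penk stood at 5079, 3371 and 6877 normalized counts in WT, at 1059, 337 and 133 in hTNFtg, and at 1083, 500 and 93 with infliximab. Its adjusted p by limma was 0.0237 in hTNFtg versus WT SFs. In treated hTNFtg versus WT SFs 2 genes of the list were raised, Sema3c and Ackr3, and 4 were lowered, again Penk, Dpt, Col14a1 and Pcolce2. In treated versus untreated hTNFtg SFs 0 of 20 passed.

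**Figure D4:**
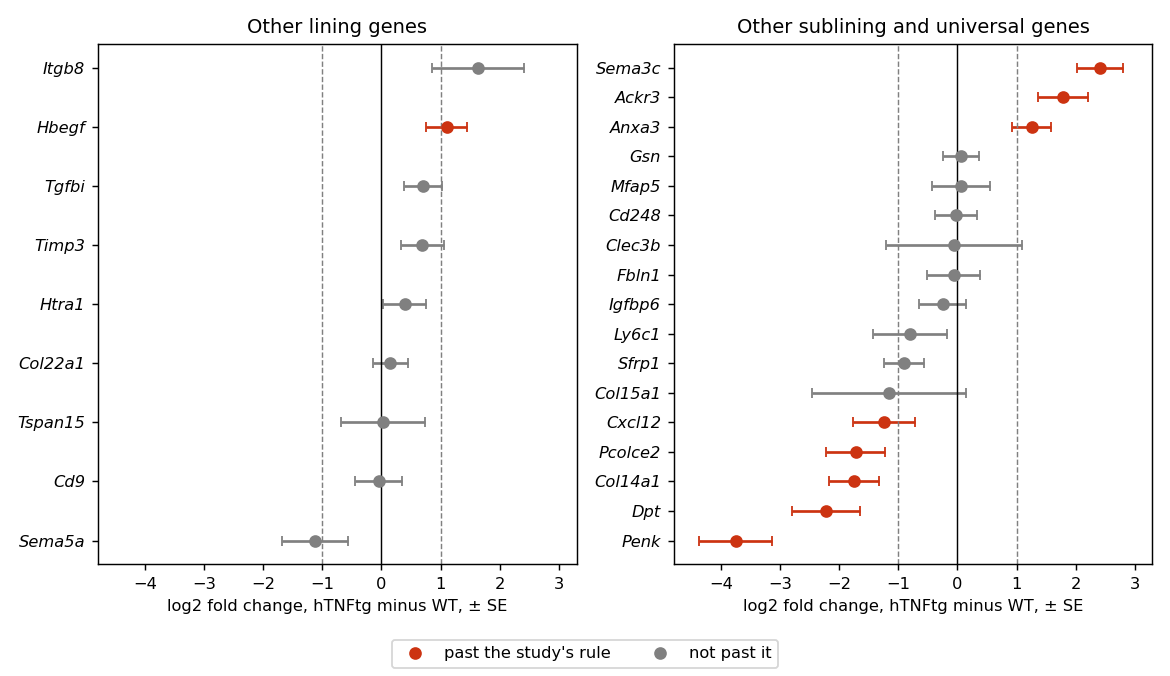
Log2 fold change ± SE (x axis, hTNFtg minus WT) of other lining genes (left) and other sublining and universal fibroblast genes (right) whose mean normalized count reached 10. Red points pass the study's rule, and dashed lines mark 1 and -1. Sema3c (2.41) and Penk (-3.75) lie at the ends of the right panel.

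Among 12 binding partners of the members, 1 of 11 tested was raised in hTNFtg versus WT SFs and 0 lowered, or 2 and 0 without hTNFtg replicate 1. The 1 was Cd44, the hyaluronan receptor, which binds podoplanin and lubricin. Cd44 stood at 228, 319 and 269 normalized counts in WT replicates 1, 2 and 3, at 922, 759 and 728 in hTNFtg, and at 552, 526 and 605 with infliximab. None of the 3 groups overlapped with another, a separation found in 18.6% of genes with a mean of at least 10 between hTNFtg and WT, 12.3% between treated and untreated hTNFtg and 23.3% between treated hTNFtg and WT. The log2 fold change was 1.56 (SE 0.28, adjusted p = 0.0385 by limma) in hTNFtg and 1.05 (SE 0.18, adjusted p = 0.0394) in treated hTNFtg, each against WT. With 1 library left out, few genes of all tested had an adjusted p under 0.05. They were 1 to 44 in hTNFtg versus WT and 0 to 1 in treated hTNFtg versus WT SFs. Between treated and untreated hTNFtg SFs the log2 fold change of Cd44 was -0.51 (SE 0.27, adjusted p = 0.803). This did not pass the test, and 0 of the 12 partners were raised or lowered. Clec1b, the podoplanin receptor of platelets, stood at 0 in 8 libraries and at 2 in infliximab replicate 2. Msn, which encodes moesin and ties podoplanin to actin, stood at 1751 to 2432 in WT, 1476 to 4693 in hTNFtg and 3489 to 4420 with infliximab.

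Of 9 chondrocyte genes, 0 were raised and 5 were lowered in hTNFtg versus WT SFs. Comp, a cartilage matrix protein, had a log2 fold change of -3.42 (SE 0.42) and Sox9, a transcription factor of cartilage, of -2.95 (SE 0.32). The list summed to 6244 to 9399 normalized counts in WT, 554 to 1218 in hTNFtg and 912 to 2538 with infliximab. In treated versus untreated hTNFtg SFs 3 of 9 were raised, with Comp at 1.14 (SE 0.46) and Sox9 at 1.10 (SE 0.33), and 0 of 9 without hTNFtg replicate 1. Over the 9 libraries, the defining genes Acan and Col9a1 did not exceed 19 and Col2a1 ranged from 37 to 133. The part of this in the results for the members was not tested. Of 6 genes of mural cells tested, the contractile cells around vessels, 0 were raised and 1 lowered, Rgs5, at 25 to 31 in WT and 0 to 4 in hTNFtg. Mcam had a log2 fold change of 0.62 (SE 0.30) and Cspg4 of 0.63 (SE 0.48), and the list of 8 summed to 256 to 421 in WT, 268 to 467 in hTNFtg and 497 to 569 with infliximab. Infliximab treatment of hTNFtg SFs went with 2 mural genes raised against untreated SFs, or 1 without hTNFtg replicate 1, and in treated hTNFtg versus WT SFs 1 was raised, Cspg4 (1.23, SE 0.33). Of 5 adipocyte genes tested, 1 was lowered in hTNFtg versus WT SFs, or 2 without hTNFtg replicate 1. In treated hTNFtg versus WT SFs 2 of 5 were lowered, among them Fabp4 (-1.36, SE 0.23). Of 10 hepatocyte genes, 2 were raised in hTNFtg versus WT SFs, or 1 without hTNFtg replicate 1. They summed to 45 or less in WT and hTNFtg libraries and to 799 in infliximab replicate 3. Alb stood at 2, 1 and 265 in infliximab replicates 1, 2 and 3. Infliximab replicate 3 was also the highest of its group for Prg4, Fap and Dpp4. It was the lowest for Cd55, Thy1, Cd34, Pi16 and Ly6a, with Pdpn between the others. A link was not tested. Of 15 general fibroblast genes, 0 were raised and 1 was lowered, Lum, a small matrix proteoglycan (-1.69, SE 0.46), and without hTNFtg replicate 1 both counts were 0.

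The genes most like Pdpn over the 9 libraries, by Pearson r of log2 values among 8630 genes with a mean of at least 50, were Ldhd (0.978), Dusp6 (0.974) and Rfc2 (0.973). Dusp6, which encodes a phosphatase of ERK, stood at 40, 68 and 61 normalized counts in WT, 131, 291 and 451 in hTNFtg, and 189, 151 and 236 with infliximab. Rfc2, a subunit of the clamp loader in DNA replication, ranged from 160 to 176 in WT, 361 to 889 in hTNFtg and 296 to 430 with infliximab. Those most like Cd55 among 8631 genes were Cycs (0.946), Eif2ak1 (0.943) and Snhg4 (0.933), and all 3 were highest in hTNFtg replicate 1. These values are descriptions, and the points share groups and library depth.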

How the data were processed

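The 3′ mRNA libraries (QuantSeq, Ion Proton) were mapped by the authors to mm10 with TopHat2 and Bowtie2 and counted per gene with GenomicRanges. The counts were normalized and then tested with DESeq, through metaseqR. The methods name DESeq for the test only. Versions and strand use are not given in the sources used here. The deposited values are a score, normalized counts that were rounded. For hTNFtg replicate 1 the deposited signal falls on whole reads times a factor for 100% of low values (those of up to 20.5 reads, matched to within 0.1 of a read), against 1.77% to 52% in the other libraries, whose reads are approximate. In those libraries 1 read was worth 0.534 to 1.10 normalized counts, so rounding alone can exceed 0.1 of a read. Their lower shares therefore do not measure how well reads were recovered. Run on the approximate reads, edgeR called 922 genes in hTNFtg versus WT SFs at an adjusted p under 0.05. Both tables hold the same values for the 3 hTNFtg libraries, which were used once. The authors' own columns of p-values, FDR and fold changes were not used, nor were 12 per-sample columns with a further normalization.

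Groups of 3 were compared with limma 3.58.1 (lmFit, eBayes with trend, two-sided) in R 4.3.3 on log2 of each normalized count with 1 added, over every gene above 0 somewhere in the 6 libraries, with Benjamini-Hochberg adjustment over all of them. The study's rule is given with the results. A gene was at the floor in a group when each library held at most 3 reads. Floors and Poisson intervals cover counting error only. The fit and the estimate of reads were tested on simulated data. All 10 members were named, from each further list up to 4 genes per direction that passed the rule with a mean of at least 10, and for members that passed it the 3 genes of highest Pearson r. Other values named were chosen after they were seen. Members and lists were chosen with earlier results of these data known. Overlapping exons and transcript ends came from GENCODE vM21 and promoters from RefSeq, both on GRCm38, of which mm10 is the UCSC name. Promoters of 6 of 10 members matched by symbol.

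Alternatives were a pseudocount of 5 or 0.5, a mean of at least 10, median-ratio rescaling, a block for the replicate number, array quality weights, 1 fit over all 9 libraries, robust eBayes, edgeR 4.0.16 (quasi-likelihood) on the reads, and each library left out.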

Additional observations from a re-analysis of the deposited data

How the results depend on the processing

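The number of members past the study's rule in hTNFtg versus WT SFs was 2, and it was 1 with a pseudocount of 5 and 1 with the replicate block, Pdpn alone in both. Cd55 then had log2 fold changes of 1.16 and 1.42, with an unadjusted P of 0.0595 and 0.0813 by limma. Of 28522 genes 746 were raised and 606 lowered with the pseudocount of 5, and 855 and 804 with the block. With 1 library left out the number of members was 1 to 2, and Cd55 was replaced by Dpp4 without hTNFtg replicate 1 and by Clic5 without hTNFtg replicate 2, both genes near the floor. Without hTNFtg replicate 1, 1510 genes were raised and 845 lowered of 28244. Without hTNFtg replicate 2 the counts were 990 and 1012 of 27539. In treated hTNFtg versus WT SFs the number of members was 1, and it was 2 by edgeR (Pdpn and Pi16) and 1 to 3 with 1 library left out. By edgeR 1242 genes were raised and 809 lowered of 28243. The 3 members without infliximab replicate 3 were Pdpn, Cd55 and Pi16, beside 1097 raised and 813 lowered of 27182 genes. Without WT replicate 1 they were Pdpn and Ly6a, beside 1361 raised and 1155 lowered of 27610. The number with an adjusted p under 0.05 in hTNFtg versus WT SFs was 0, and it was 1, Pdpn, with array quality weights (beside 3.52% of genes), robust eBayes (1.62%), all 9 libraries in one fit (1.22%) and edgeR (3.23%), against 0.480% in the reported fit. In treated hTNFtg versus WT SFs it was 1, and it was 0 with the replicate block, 0 with all 9 libraries in one fit, and 0 with any library left out, which leaves fewer samples. Over all genes the calls fell as well, from 209 of 28243 in the reported fit to 0 with the block and 68 of 30297 in one fit. With any library left out they were 0 to 1, so this loss is not particular to the members. In treated versus untreated hTNFtg SFs both numbers of members were 0 under every alternative run. The cause of the other changes was not tested.

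Of single members the log2 fold change of Cd34 in hTNFtg versus WT SFs turned to 0.30 with array quality weights and to 0.07 by edgeR, and ranged from -0.38 to 0.40 with 1 library left out. With 1 library left out, Ly6a ranged from -0.11 to 1.04 in that comparison. In treated versus untreated hTNFtg SFs the ranges were -0.50 to 0.01 for Prg4, -0.32 to 0.43 for Fap, -0.23 to 0.06 for Thy1, -0.05 to 0.72 for Cd34 and -0.20 to 0.79 for Ly6a. Whether the replicate numbers paired the samples cannot be decided here, since the deviations are from means of only 3 libraries a group. Deviations of same-numbered libraries in hTNFtg and WT SFs correlated at 0.292, -0.14 and 0.353. Those in treated and untreated hTNFtg SFs correlated at 0.07, 0.197 and 0.265, against -0.256 to 0.126 for libraries of different numbers. For treated hTNFtg and WT SFs the same-numbered values were 0.102, -0.147 and 0.013. Not every library correlated best with its own number. The replicate block took the genes at an adjusted p under 0.05 from 137 to 0 in hTNFtg versus WT SFs and from 209 to 0 in treated hTNFtg versus WT SFs. With 1 library left out they were 1 to 44 and 0 to 1, in the same order, so the adjusted calls of list genes also depend on the full set of libraries.

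Depth limits Clic5, Dpp4, Pi16, Fap, Cd55 and Cd34, since 3 reads stood for 18.7 normalized counts in hTNFtg replicate 1. With 3 libraries a group, differences within their spread were not detectable. The values of Prg4 cannot be told apart from those of Tpr, which overlaps it on the opposite strand. Whether reads of this overlap were counted for each gene was not tested.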
